A study of Homo sapiens with 27 samples.

Results

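Krüppel-like factor (KLF) genes encode transcription factors, and 8 of them, KLF2, KLF4, KLF5, KLF6, KLF7, KLF9, KLF10 and KLF11, were followed through 27 RNA sequencing libraries of A375 cells. They were chosen by name from a table of read counts for 58721 genes, with earlier results of these data known. Shares of members called are thus not those of an unselected set. All 8 passed the filter on low counts that left 25199 genes for testing. A375 is an established human melanoma line whose kinase BRAF carries an activating mutation. The knockout cells carried guide 1 or guide 2 against TADA2B, an adaptor subunit of the SAGA histone acetyltransferase complex, and the control cells carried a guide against GFP, which has no target among human genes. Each of the 3 populations received trametinib at 20 nM, which blocks the kinase MEK, 1 µM vemurafenib, which blocks mutant BRAF, or the solvent DMSO for 24 h, with 3 libraries in each of the 9 groups. The groups were thus TADA2B guide 1, TADA2B guide 2 and control cells in trametinib, the same populations in vemurafenib, and the same populations in DMSO. The labels do not say whether a population is a pool or 1 clone. Nor do they name separate cultures for the 3 libraries of a group, so the p-values reflect a spread that could be technical alone. They do not measure the spread between populations. A knockout effect here compares the guide populations with 1 control population, and cannot be told apart from other differences between these populations.

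KLF proteins bind GC-rich and CACCC sequences through 3 zinc fingers at their C-terminal end, and they differ in the N-terminal part, which recruits coactivators or corepressors. KLF2, KLF4, KLF5, KLF6 and KLF7 are mostly known as activators, KLF4 also as a repressor and as a reprogramming factor, while KLF9, KLF10 and KLF11 recruit the SIN3A corepressor. Several members are early response genes whose RNA follows growth factor signalling, hormones or TGF-beta.

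In GENCODE 29 on hg38, all 8 are protein-coding. The annotation places KLF2 (ENSG00000127528) at chr19:16324817-16327874 on the plus strand, KLF5 (ENSG00000102554) at chr13:73054976-73077542 on the plus strand, KLF6 (ENSG00000067082) at chr10:3775996-3785281 on the minus strand and KLF4 (ENSG00000136826) at chr9:107484852-107490482 on the minus strand. It places KLF7 (ENSG00000118263) at chr2:207074137-207167267 on the minus strand, KLF11 (ENSG00000172059) at chr2:10042849-10054836 on the plus strand, KLF9 (ENSG00000119138) at chr9:70384597-70414624 on the minus strand and KLF10 (ENSG00000155090) at chr8:102648779-102655902 on the minus strand.

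Depth was 67502300 to 92513726 counts per library. Levels are given as CPM, which are counts scaled to library size and TMM factor, and the lowest count of a member in any library was 202, for KLF2. Libraries within a group differed by more than sampling noise, and the common biological coefficient of variation was 4.02%. Of the melanocytic markers, SOX10 had 267 to 1120 CPM over all libraries, DCT, a pigment enzyme, 0.128 to 1060 CPM, and MITF at most 152 CPM, while MLANA stayed at or below 2.08 CPM, PMEL at or below 2.34 CPM and TYR at or below 0.281 CPM. TADA2B itself had 30.4 ± 0.773 CPM with guide 1 and 28.6 ± 1.21 CPM with guide 2, against 31.2 ± 0.931 CPM in control cells in DMSO (SD, n = 3 each), and was not called there (log2 fold change -0.08 ± 0.037; adjusted p = 0.063, edgeR's quasi-likelihood test). It was lower in knockout than in control cells in trametinib (-0.37 ± 0.036; adjusted p = 1.2e-12) and in vemurafenib (-0.52 ± 0.036; adjusted p = 1e-17), with no overlap of libraries. Control cells had 40.5 to 42.8 CPM with trametinib and 42.5 to 45.2 CPM with vemurafenib, against 30.2 to 32.1 CPM in DMSO. Knockout cells had 28.8 to 35.7 CPM with trametinib and 27.6 to 33.8 CPM with vemurafenib, against 27.3 to 31.1 CPM in DMSO. An edit that shifts the reading frame need not lower the RNA, so these levels do not check the knockout.

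The sequences just before the RefSeq starts of KLF9, KLF4, KLF6 and KLF2 are shown because the results turn on these genes. They are RefSeq sequence of GRCh38.p14, 5′ to 3′ on the gene's strand, in lower case. Capitals mark matches to an E-box (CACGTG), a cyclic AMP response element (TGACGTCA), an AP-1 element (TGANTCA), a FOX element (GTAAACA) or a MEF2 element (CTA and TAG with 4 bases between them), searched on both strands. The KLF9 stretch is chr9:70414658-70414907 on the minus strand, the KLF4 stretch chr9:107489770-107490019 on the minus strand, the KLF6 stretch chr10:3785282-3785459 on the minus strand and the KLF2 stretch chr19:16324576-16324816 on the plus strand. Bases next to the start that GENCODE 29 places in an exon were left off, 72 for KLF6 and 9 for KLF2. The KLF4 stretch lies within the bounds that GENCODE 29 gives KLF4, outside its exons, so it is not upstream of that whole gene.
KLF9: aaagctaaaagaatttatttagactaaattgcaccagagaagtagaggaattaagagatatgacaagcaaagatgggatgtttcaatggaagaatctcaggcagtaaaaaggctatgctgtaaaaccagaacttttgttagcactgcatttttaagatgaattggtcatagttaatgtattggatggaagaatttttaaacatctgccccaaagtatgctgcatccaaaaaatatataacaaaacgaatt
KLF4: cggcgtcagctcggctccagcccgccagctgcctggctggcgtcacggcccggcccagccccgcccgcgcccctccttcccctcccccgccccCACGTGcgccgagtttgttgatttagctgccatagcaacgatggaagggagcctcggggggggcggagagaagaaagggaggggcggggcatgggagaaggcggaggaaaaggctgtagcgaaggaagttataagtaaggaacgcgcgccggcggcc
KLF6: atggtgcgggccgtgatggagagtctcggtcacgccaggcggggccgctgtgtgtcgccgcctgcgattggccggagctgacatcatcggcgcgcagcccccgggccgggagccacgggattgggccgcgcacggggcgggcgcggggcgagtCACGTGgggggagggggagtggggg
KLF2: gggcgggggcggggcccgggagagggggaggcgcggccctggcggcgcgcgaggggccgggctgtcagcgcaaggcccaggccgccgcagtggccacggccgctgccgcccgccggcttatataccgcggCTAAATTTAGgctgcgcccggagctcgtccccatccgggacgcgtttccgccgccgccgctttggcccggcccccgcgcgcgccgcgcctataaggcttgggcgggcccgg

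The 250 bases before the KLF9 start are 32.4% G and C, against 69.2% for KLF4, 72.4% for KLF6 and 80% for KLF2. None of the 5 motifs, nor the GC box GGGCGG or the CACCC box CCACCC that KLF and SP proteins bind, matched in the KLF9 window. KLF4 and KLF6 each held an E-box, starting 157 and 97 bases before the start, and KLF2 held a MEF2 match 120 bases before it. An E-box occurs in 6.32% of 34943 such windows, a MEF2 match in 2.36%, a GC box in 42.5% and a CACCC box in 31.3%. KLF4 and KLF2 had 4 GC boxes each and KLF6 had 2. An E-box was also present in 1 of the windows of KLF7 and in 1 of those of KLF11. The other KLF11 window held a match to the MEF2 pattern, 18 bases before the start, and a cyclic AMP response element, 176 bases before it, which occurs in 1.63% of all windows. The MEF2 pattern allowed any 4 bases in the middle, AATT in KLF2 and GCGG in KLF11. A match, here or in the share of all windows, therefore need not be a MEF2 element. In all, 7 members had a window in the table, with 12 windows between them.

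In DMSO-treated control cells KLF9 was the most abundant member per length, at 52.2 ± 0.423 CPM per kilobase of exon (SD, n = 3). KLF5 followed with 20.2 ± 1.06, KLF6 with 11 ± 0.122 and KLF10 with 8.51 ± 0.324 CPM per kilobase. KLF4 stood at 5.41 ± 0.318, KLF2 at 2.97 ± 0.38, KLF11 at 1.81 ± 0.0334 and KLF7 at 1.51 ± 0.129 CPM per kilobase. Between the lowest and highest of the 9 group means the level differed 9.72-fold for KLF9, 9.69-fold for KLF4, 4.3-fold for KLF7, 3.45-fold for KLF2, 3.4-fold for KLF6, 2.23-fold for KLF11, 2.03-fold for KLF5 and 1.63-fold for KLF10. In the order of group means, all 8 neighbouring pairs of groups were apart in every library for KLF9, 7 of 8 for KLF4, 6 for KLF7, 5 each for KLF5 and KLF6, 4 for KLF11, 3 for KLF10 and 2 for KLF2. Such pairs were not counted for all genes, so these numbers do not show whether a member stands out.

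**Figure D1:**
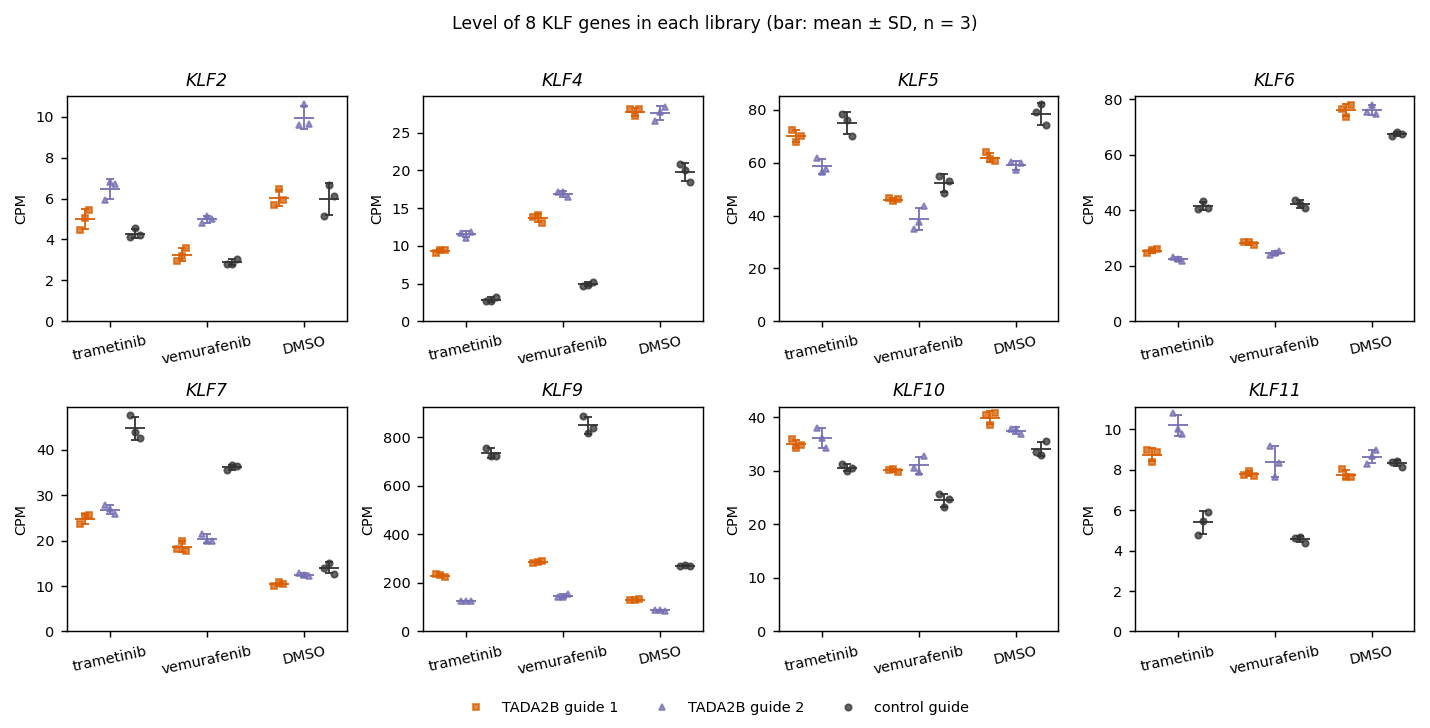
Level of each KLF gene in CPM in all 27 libraries, by treatment, with TADA2B guide 1 cells left, guide 2 cells in the middle and control cells right; points are libraries and bars the mean ± SD of 3. KLF9 is highest in control cells with vemurafenib (848 CPM) and lowest in guide 2 cells with DMSO (87.2 CPM), while KLF4 is lowest in control cells with trametinib (2.87 CPM).

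Among the 5 activators, KLF4, a factor of epithelial differentiation and of reprogramming, showed the largest fall with the drugs in control cells. It had there 2.74, 2.66 and 3.2 CPM with trametinib and 4.74, 4.88 and 5.23 CPM with vemurafenib, against 20.8, 20.1 and 18.5 CPM in DMSO. The 3 treatments did not overlap. In bulk RNA, fewer cells that express a gene and less RNA per cell cannot be told apart. The fall was 6.92-fold with trametinib (log2 fold change -2.79 ± 0.068, SE; adjusted p = 8e-36, edgeR's quasi-likelihood test with Benjamini-Hochberg adjustment over all tested genes, as for every adjusted p here) and 4-fold with vemurafenib (-2.00 ± 0.063; adjusted p = 4e-31). In TADA2B knockout cells KLF4 kept more of its level. With trametinib it had 9.12, 9.48 and 9.5 CPM in guide 1 cells and 11.7, 11.1 and 11.8 CPM in guide 2 cells, and with vemurafenib 13.8, 14.1 and 13.1 CPM in guide 1 cells and 17.1, 17.2 and 16.5 CPM in guide 2 cells. Without drug it had 28.1, 27.2 and 28.2 CPM in guide 1 cells and 26.6, 27.8 and 28.4 CPM in guide 2 cells, all above the control libraries. Knockout thus raised KLF4 3.64-fold in trametinib (log2 fold change 1.86 ± 0.065; adjusted p = 4e-29), 3.08-fold in vemurafenib (1.62 ± 0.058; adjusted p = 1.7e-28) and 1.4-fold in DMSO (0.49 ± 0.048; adjusted p = 2.4e-12). The log2 response of the knockout cells was less negative than that of control cells by 1.38 ± 0.081 with trametinib (adjusted p = 9.9e-20) and by 1.14 ± 0.075 with vemurafenib (adjusted p = 8.6e-18).

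KLF2, which like KLF4 is induced by the MEK5 and ERK5 kinases through MEF2 factors in endothelium, also fell with the drugs. In control cells it had 4.13, 4.54 and 4.21 CPM with trametinib and 2.78, 2.81 and 3.05 CPM with vemurafenib, against 5.16, 6.68 and 6.11 CPM in DMSO. No library of a drug group reached the DMSO range. The log2 fold change was -0.48 ± 0.096 with trametinib (adjusted p = 1.9e-05) and -1.06 ± 0.1 with vemurafenib (adjusted p = 3.7e-13). The knockout value of KLF2 rested on 1 guide. In DMSO guide 2 cells had 9.59, 10.6 and 9.66 CPM, against 5.16, 6.68 and 6.11 CPM in control cells, whereas guide 1 cells had 5.68, 6.46 and 5.91 CPM, within the control range. Guide 2 exceeded control by 0.73 ± 0.09 on the log2 scale (adjusted p = 1.1e-09), while guide 1 differed by 0.01 ± 0.093 (adjusted p = 0.96). The same held with the drugs: guide 2 minus guide 1 was 0.38 ± 0.092 in trametinib (adjusted p = 0.0018) and 0.62 ± 0.1 in vemurafenib (adjusted p = 4.5e-06), and guide 1 was not called against control in either (adjusted p = 0.056 and 0.17). The averaged knockout values of KLF2, 0.37 in DMSO, 0.40 in trametinib and 0.48 in vemurafenib, describe guide 2 more than guide 1.

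KLF5, known to promote the growth of epithelial progenitors, changed least of the 8 with trametinib in control cells. These had 78.3, 76.3 and 70.3 CPM with trametinib, against 79.3, 82.4 and 74.2 CPM in DMSO, ranges that overlapped (log2 fold change -0.07 ± 0.054; adjusted p = 0.26). With vemurafenib they had 55, 48.4 and 53.2 CPM, all below DMSO, a change of -0.59 ± 0.055 (adjusted p = 1.4e-11). The knockout lowered KLF5, with a log2 fold change of -0.38 ± 0.046 in DMSO (adjusted p = 1.3e-08), -0.23 ± 0.046 in trametinib (adjusted p = 9e-05) and -0.31 ± 0.048 in vemurafenib (adjusted p = 1.4e-06). In knockout cells the trametinib response was 0.08 ± 0.038 (adjusted p = 0.051), and 6 other settings put it past the threshold (adjusted p between 0.0017 and 0.044). With trametinib guide 1 alone was not called (-0.10 ± 0.054; adjusted p = 0.14), and guide 2 was (-0.35 ± 0.054; adjusted p = 1.1e-06).

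KLF6, described as a tumour suppressor and injury response factor, fell with both drugs in control cells and further in knockout cells. In control cells it had 40.4, 43.2 and 41 CPM with trametinib and 43.8, 42.4 and 40.9 CPM with vemurafenib, against 66.8, 68.3 and 67.6 CPM in DMSO. In knockout cells it had 24.8, 25.6 and 25.9 CPM with guide 1 and 23.1, 22.3 and 21.8 CPM with guide 2 in trametinib, against 76.7, 73.7 and 77.9 CPM with guide 1 and 75.6, 78 and 74.6 CPM with guide 2 in DMSO. The drug groups lay below DMSO in every library of each population. The log2 response to trametinib was -1.67 ± 0.027 in knockout cells and -0.70 ± 0.037 in control cells, a difference of -0.97 ± 0.046 (adjusted p = 4.5e-23). The difference for vemurafenib was -0.86 ± 0.046 (adjusted p = 6e-21). The knockout effect on KLF6 had opposite signs by treatment: it was 0.17 ± 0.032 in DMSO (adjusted p = 7.9e-06), -0.80 ± 0.033 in trametinib and -0.69 ± 0.033 in vemurafenib (adjusted p = 5e-26 and 2.6e-23).

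KLF7, best known for its part in neuron outgrowth, was the activator that rose with the drugs. Control cells had 47.6, 43.9 and 42.6 CPM with trametinib and 35.6, 36.6 and 36.3 CPM with vemurafenib, against 14, 15.1 and 12.7 CPM in DMSO. The rise was 3.2-fold with trametinib (log2 fold change 1.68 ± 0.056; adjusted p = 2.2e-30) and 2.59-fold with vemurafenib (1.37 ± 0.056; adjusted p = 1.2e-26). In knockout cells the drugs brought it to 23.6, 25.4 and 25.6 CPM with guide 1 and 27.8, 26.9 and 25.8 CPM with guide 2 in trametinib, below every control library in that drug. The rise was smaller in knockout than in control cells, with a difference of log2 responses of -0.50 ± 0.069 for trametinib (adjusted p = 3.2e-08) and -0.60 ± 0.07 for vemurafenib (adjusted p = 5.5e-10). In DMSO the knockout effect was -0.29 ± 0.052 (adjusted p = 3.5e-06), with overlapping libraries.

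Of the SIN3A-recruiting repressors, KLF9, a target of glucocorticoid and thyroid hormone receptors, was the most abundant and the most lowered by the knockout. Control cells had 757, 723 and 722 CPM with trametinib and 886, 819 and 838 CPM with vemurafenib, against 268, 272 and 271 CPM in DMSO. The rise was 2.72-fold with trametinib (log2 fold change 1.44 ± 0.03; adjusted p = 1.3e-38) and 3.14-fold with vemurafenib (1.65 ± 0.03; adjusted p = 7.2e-41). In DMSO guide 1 cells had 130, 129 and 132 CPM and guide 2 cells 87.7, 87.7 and 86.1 CPM, all under the control libraries. With trametinib guide 1 cells had 235, 231 and 225 CPM and guide 2 cells 125, 126 and 124 CPM, and with vemurafenib guide 1 cells had 283, 288 and 290 CPM and guide 2 cells 141, 142 and 153 CPM. Guide 2 cells given either drug stayed below untreated control cells. Relative to control cells in the same treatment, KLF9 stood at 48.1% with guide 1 and 32.3% with guide 2 in DMSO, 31.3% and 17% in trametinib, and 33.8% and 17.2% in vemurafenib. Averaged over guides, the knockout effect was -1.34 ± 0.026 in DMSO (adjusted p = 2e-39), -2.11 ± 0.025 in trametinib (adjusted p = 7.5e-48) and -2.05 ± 0.025 in vemurafenib (adjusted p = 2.5e-47). The rise with the drugs was smaller in knockout than in control cells, with a difference of log2 responses of -0.77 ± 0.037 for trametinib (adjusted p = 6.5e-23) and -0.71 ± 0.037 for vemurafenib (adjusted p = 1.7e-21). Guide 2 gave lower KLF9 than guide 1, with a log2 difference of -0.58 ± 0.031 in DMSO, -0.88 ± 0.031 in trametinib and -0.98 ± 0.031 in vemurafenib (adjusted p = 5e-20, 1.4e-27 and 2.6e-29).

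KLF10 and KLF11, first described as TGF-beta inducible early genes, moved within narrower bounds. KLF10 had 31.2, 30 and 30.5 CPM with trametinib and 25.7, 23.2 and 24.7 CPM with vemurafenib in control cells, against 33.6, 33 and 35.5 CPM in DMSO. Its log2 fold change was -0.15 ± 0.045 with trametinib (adjusted p = 0.0021) and -0.47 ± 0.045 with vemurafenib (adjusted p = 5.1e-13). Knockout raised KLF10 by 0.18 ± 0.039 in DMSO, 0.22 ± 0.039 in trametinib and 0.32 ± 0.04 in vemurafenib (adjusted p = 5.4e-05, 4.4e-06 and 1.9e-09). KLF11 had 4.78, 5.48 and 5.92 CPM with trametinib and 4.64, 4.69 and 4.38 CPM with vemurafenib in control cells, against 8.38, 8.44 and 8.15 CPM in DMSO. Its fall there was -0.63 ± 0.077 with trametinib and -0.86 ± 0.079 with vemurafenib (adjusted p = 6.3e-10 and 1e-13). In knockout cells with trametinib it had 8.98, 8.39 and 8.85 CPM with guide 1 and 10.8, 10 and 9.77 CPM with guide 2, against 8.01, 7.63 and 7.65 CPM with guide 1 and 8.3, 8.67 and 8.96 CPM with guide 2 in DMSO. These log2 responses were 0.20 ± 0.052 to trametinib (adjusted p = 0.00053) and -0.02 ± 0.053 to vemurafenib (adjusted p = 0.78). The difference in response was 0.83 ± 0.093 for trametinib (adjusted p = 1.6e-10) and 0.85 ± 0.095 for vemurafenib (adjusted p = 1.8e-10). The knockout effect on KLF11 in DMSO was -0.02 ± 0.065 (adjusted p = 0.78).

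**Figure D2:**
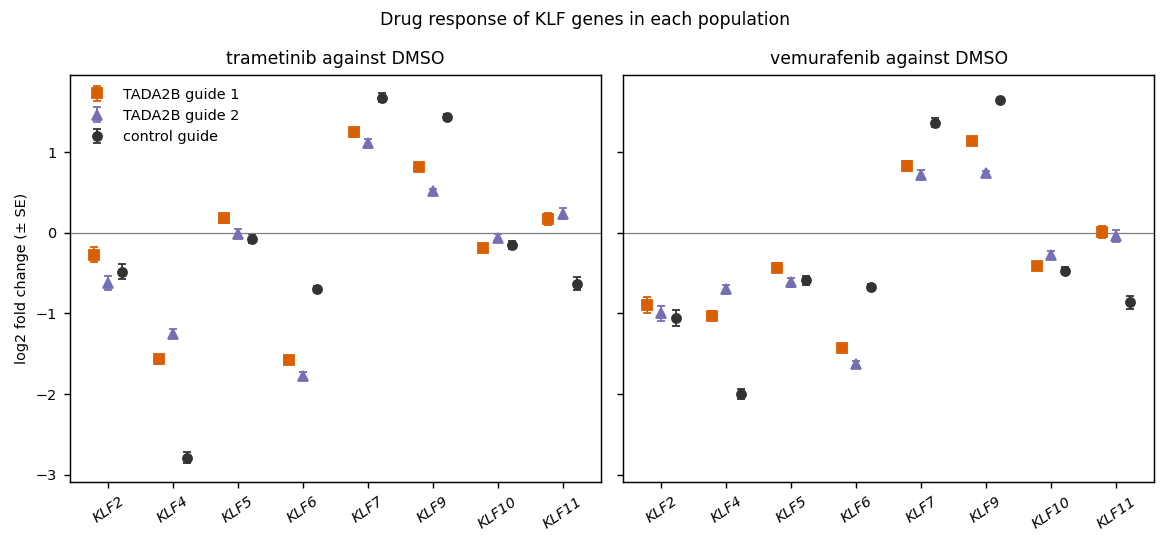
Log2 fold change of each KLF gene against DMSO for trametinib and vemurafenib, with TADA2B guide 1 cells, guide 2 cells and control cells side by side; points are fitted values and bars ± SE. KLF4 falls less and KLF6 more in both knockout populations than in control cells, and KLF7 and KLF9 rise less.

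Counted together in control cells, trametinib raised 2 members (KLF7 and KLF9) and lowered 5 of 8. Of all tested genes 69% were called, 36.4% higher and 32.5% lower, and at least 2-fold changes were called in 29.6%, against 3 of 8 members. The median log2 fold change was -0.32 over the members and 0.06 over all tested genes. Vemurafenib raised the same 2 and lowered 6, where 67.3% of all genes were called, 35.7% higher and 31.6% lower. At least 2-fold, 4 members were called (KLF2, KLF4, KLF7 and KLF9) and 27.5% of all genes, and the medians were -0.63 over the members and 0.06 over all genes. With this many genes called, a call by itself does not set a member apart.

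In knockout cells trametinib raised 3 members, KLF7, KLF9 and KLF11, and lowered 4, where 71.4% of all genes were called, 37.2% higher and 34.3% lower. At least 2-fold, KLF4, KLF6 and KLF7 were called, and 21.9% of all genes. Vemurafenib raised KLF7 and KLF9 and lowered 5, where 69.1% of all genes were called, 36% higher and 33.1% lower. KLF6 was the member past 2-fold there, and 19.1% of all genes were. The medians over the members were -0.02 with trametinib and -0.43 with vemurafenib, and 0.04 over all genes with either drug. The vemurafenib and trametinib responses of 1 population share its DMSO libraries.

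In the knockout comparisons 4 members rose in DMSO (KLF2, KLF4, KLF6 and KLF10) and 3 fell (KLF5, KLF7 and KLF9), where 57.9% of all genes were called, 29.3% higher and 28.6% lower. KLF9 was past 2-fold, as were 12.6% of all genes. In trametinib KLF2, KLF4, KLF10 and KLF11 rose and the other 4 fell, where 55.9% of all genes were called, 27.1% higher and 28.8% lower. In vemurafenib the same 4 rose and the same 4 fell, where 55.6% of all genes were called, 27.3% higher and 28.3% lower. KLF4 and KLF9 were past 2-fold in both drugs, as were 13.2% of all genes in trametinib and 13.3% in vemurafenib. The median over the members was 0.07 in DMSO, 0 in trametinib and 0.01 in vemurafenib, against 0, -0.02 and -0.01 over all genes.

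Both drug responses differed between knockout and control cells for KLF4, KLF6, KLF7, KLF9 and KLF11. For trametinib 2 of these differences were positive and 3 negative, where 43.9% of all genes were called, 20.8% higher and 23.2% lower. For vemurafenib 3 were positive and 3 negative, KLF10 included, where 42.5% of all genes were called, 20% higher and 22.4% lower. KLF4 was past 2-fold in both, as were 8.98% of all genes for trametinib and 7.83% for vemurafenib. The KLF10 difference with vemurafenib was 0.13 ± 0.055 (adjusted p = 0.048), a call that was lost under 3 other settings (adjusted p between 0.058 and 0.11) and when any of 12 single libraries was left out (adjusted p between 0.051 and 0.21). KLF2 was called in neither difference (0.03 ± 0.12 for trametinib and 0.11 ± 0.12 for vemurafenib; adjusted p = 0.85 and 0.49). The KLF5 difference with trametinib was 0.15 ± 0.066 (adjusted p = 0.06), and 5 other settings put it past the threshold (adjusted p between 0.013 and 0.039).

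**Figure D3:**
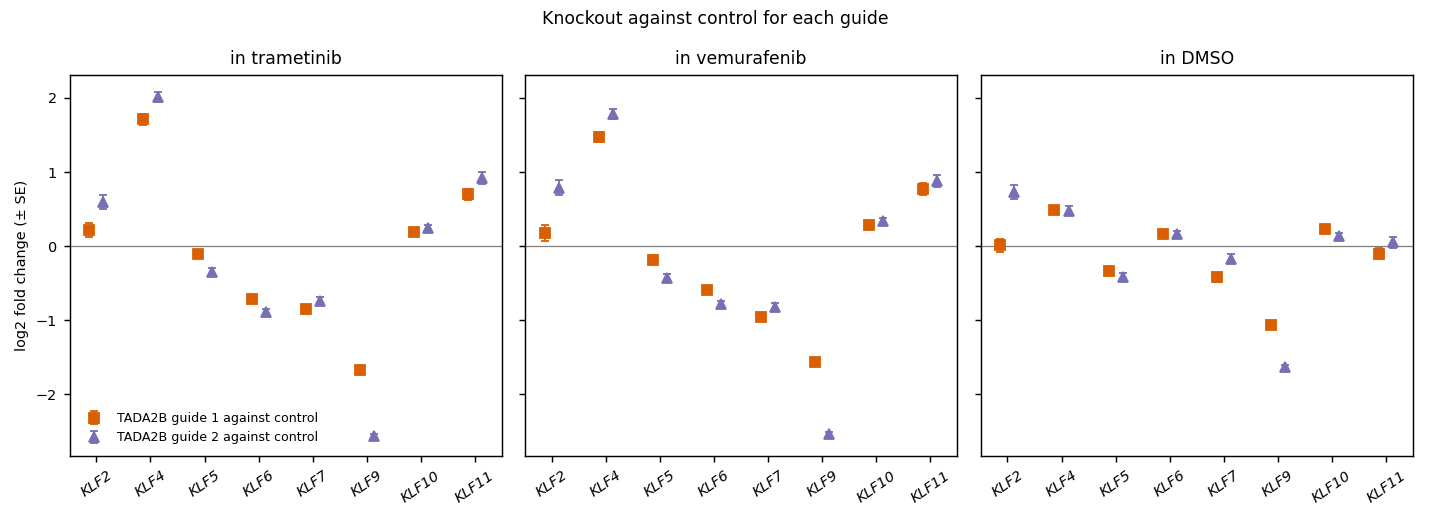
Log2 fold change of each KLF gene in knockout against control cells for guide 1 and guide 2, in trametinib, vemurafenib and DMSO; points are fitted values and bars ± SE. KLF9 is lowered by both guides in every treatment, more by guide 2, and KLF4 is raised most in trametinib (1.71 for guide 1 and 2.01 for guide 2).

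Set against trametinib, vemurafenib left control cells with less KLF2, KLF5, KLF7, KLF10 and KLF11 and with more KLF4 and KLF9, 7 of 8 members. Of all genes 16.3% were called, 8.78% higher and 7.56% lower, and 1.44% at least 2-fold, where no member was. KLF4 was 1.73-fold higher (log2 fold change 0.79 ± 0.078; adjusted p = 1.8e-11) and KLF2 1.49-fold lower (-0.58 ± 0.1; adjusted p = 2.4e-05), with no overlap of libraries in either. KLF5 was 1.44-fold lower (-0.52 ± 0.055; adjusted p = 3.5e-09) and KLF6 differed by 0.03 ± 0.038 (adjusted p = 0.71). In knockout cells all 8 were called, 3 higher and 5 lower, where 19.2% of all genes were called, 10.9% higher and 8.29% lower. No member differed by 2-fold, and 1.44% of all genes did. There KLF5 was 1.52-fold lower (-0.60 ± 0.039; adjusted p = 2.6e-14) and KLF4 1.46-fold higher (0.55 ± 0.041; adjusted p = 2.8e-15). The doses were 1 µM vemurafenib and 20 nM trametinib, and whether they inhibited the pathway equally was not tested. The KLF11 call in control cells (-0.24 ± 0.081; adjusted p = 0.038) was lost under 3 other settings (adjusted p between 0.071 and 0.077) and when any of 5 single libraries was left out, trametinib replicates 2 and 3 or vemurafenib replicates 1, 2 and 3 (adjusted p between 0.06 and 0.23).

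Over the 9 group means of log2-CPM, KLF4 and KLF7 ran opposite to each other (Pearson r -0.96, as a description over 9 groups that share libraries' scaling), as did KLF9 and KLF11 (-0.87), while KLF2 and KLF10 ran together (0.84). KLF5 followed no other member closely, with r between -0.19 and 0.43. Among 12159 protein-coding genes averaging at least 1 log2-CPM, the closest to KLF9 were BBX (0.9967) and FRMD6 (0.9952), and the closest to KLF4 were TXK (0.9963) and FGFRL1 (0.9958). KLF6 was closest to EIF1 (0.9918) and MPRIP (0.9904), KLF11 to CEP70 (0.9897) and AJUBA (0.9828), and KLF7 to CCDC136 (0.9849) and CUX1 (0.9841). KLF10 was closest to DSG2 (0.9605) and ACTR3B (0.955), KLF5 to NDRG1 (0.9378) and FABP5 (0.9116), and KLF2 to PAK6 (0.9227) and SANBR (0.921). These are the highest of 12159 values for each member over only 9 groups. How many other genes came near them was not counted, so they do not show a particular link. FGFRL1 had a group mean of 5.37 CPM in control cells with trametinib, where KLF4 was also lowest, and of 234 CPM in guide 1 cells with DMSO.

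Of 9 other KLF genes 8 were tested. KLF13, which also recruits SIN3A, had 163, 152 and 161 CPM with trametinib, against 41.1, 42.6 and 41.9 CPM in DMSO in control cells, with no overlap (log2 fold change 1.92 ± 0.037; adjusted p = 2.5e-40). With trametinib guide 1 cells had 103, 111 and 105 CPM and guide 2 cells 85.2, 86.5 and 85.2 CPM, and the difference of log2 responses, knockout minus control, was -0.78 ± 0.044 (adjusted p = 3.2e-20). KLF3, which binds the CtBP corepressors, rose with trametinib in control cells (1.00 ± 0.039; adjusted p = 2.1e-27) and was lower in knockout than in control cells in trametinib (-0.75 ± 0.033; adjusted p = 4.5e-25). KLF15 had 3.92 to 6.24 CPM in knockout cells, against 12 to 14.4 CPM in control cells in DMSO (-1.30 ± 0.071; adjusted p = 3.7e-21). KLF16 fell with trametinib in control cells (-0.90 ± 0.065; adjusted p = 4e-17). KLF1, KLF8 and KLF17 had group means of at most 0.031, 0.16 and 0.657 CPM. Counting calls, the other KLF genes showed 2 higher and 3 lower with trametinib in control cells, and 2 higher and 3 lower with knockout in DMSO, with median log2 fold changes of 0.17 and -0.02. Of all genes 36.4% were higher and 32.5% lower with trametinib, and 29.3% higher and 28.6% lower with knockout. KLF17, near the floor, is among the calls in both comparisons.

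SP proteins bind the same GC boxes, and 8 of 9 SP genes were tested. SP1 was the most abundant, with group means between 142 and 205 CPM, and fell with knockout in DMSO (-0.29 ± 0.024; adjusted p = 1.2e-14). SP4 fell with trametinib in control cells, with values of 8.15 to 8.85 CPM, against 17.6 to 20.7 CPM in DMSO (-1.18 ± 0.075; adjusted p = 3.3e-19). With trametinib in control cells 3 SP genes rose and 3 fell, where 36.4% of all genes were higher and 32.5% lower. With knockout in DMSO 2 rose and 3 fell, where 29.3% of all genes were higher and 28.6% lower. The rises include genes near the floor. SP7 had 0.0815 to 0.434 CPM with trametinib in control cells, and SP6 had 0.474 to 0.94 CPM in knockout cells in DMSO.

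**Figure D4:**
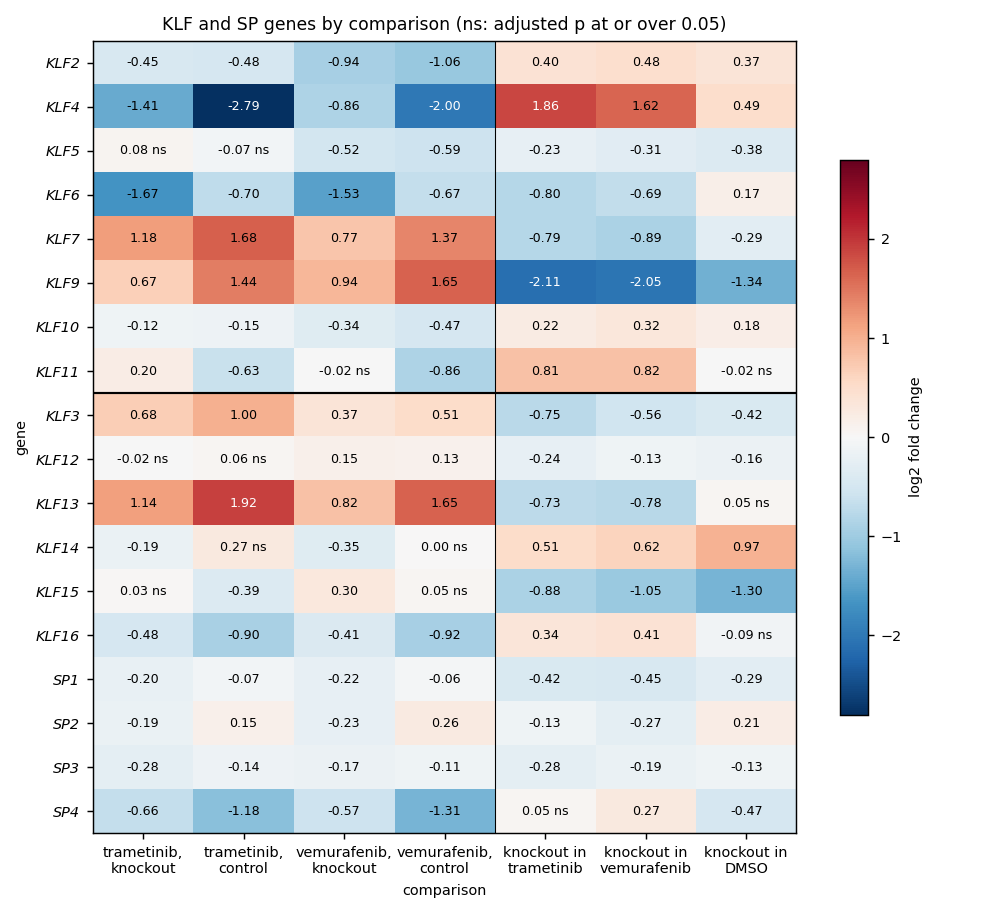
Log2 fold change of the 8 KLF genes, 6 other KLF genes and 4 SP genes in 7 comparisons, as colour and number; ns marks an adjusted p at or over 0.05. KLF3, KLF7, KLF9 and KLF13 rise with both drugs in knockout and in control cells, and KLF9 has the lowest knockout values.

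Genes that act on the KLF family were read from lists of kinases, cofactors, ubiquitin ligases and targets. The lists were chosen with earlier results of these data known, so their counts beside all genes are descriptions and no independent support. Of the 7 kinases and MEF2 factors of the KLF2 and KLF4 pathway, 6 rose with trametinib in control cells and 0 fell, where 36.4% of all genes were higher and 32.5% lower. KLF2 and KLF4 themselves fell. MEF2C, which encodes a transcription factor, had 269 to 286 CPM with trametinib, against 49.5 to 50.6 CPM in DMSO (2.47 ± 0.037; adjusted p = 1.3e-44), and its knockout value in trametinib was -2.40 ± 0.029 (adjusted p = 3e-47). All 7 showed a lower response in knockout than in control cells, for both drugs, as did 23.2% of all genes for trametinib and 22.4% for vemurafenib. The median differences over the 7 were -0.33 and -0.43, against -0.02 and -0.01 over all genes. Of 12 cofactors 5 rose and 5 fell with trametinib in control cells. KAT2B, an acetyltransferase that is itself a SAGA subunit, had 249 to 263 CPM with trametinib, against 52.6 to 55.4 CPM in DMSO (2.24 ± 0.033; adjusted p = 8.2e-45). With knockout in DMSO, 2 cofactors rose and 5 fell, where 29.3% of all genes were higher and 28.6% lower. Of 9 ubiquitin ligases 8 rose with trametinib in control cells, where 36.4% of all genes did, but their median was 0.13, against 0.06 over all genes. FBXW7 had the largest of these values (0.67 ± 0.052; adjusted p = 3.4e-16), and the smallest called value was 0.07.

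The next lists were likewise chosen with earlier results of these data known. Of 12 early targets of TGF-beta, the signal that induces KLF10 and KLF11, 11 rose and 1 fell with knockout in DMSO, where 29.3% of all genes were higher and 28.6% lower. Their median log2 fold change was 0.76, against 0 over all genes, and KLF10 rose by 0.18 there. In knockout cells the response to trametinib was lower than in control cells for 10 of them and higher for 1, where 23.2% of all genes were lower and 20.8% higher, while KLF11 was higher by 0.83. PMEPA1, a feedback inhibitor of that signal, gave -2.93 ± 0.04 (adjusted p = 1.1e-44). Of 17 immediate early genes 5 rose and 12 fell with trametinib in control cells, where 36.4% of all genes were higher and 32.5% lower. JUN had 595 to 637 CPM with trametinib, against 8.81 to 10.1 CPM in DMSO (6.00 ± 0.046; adjusted p = 1e-56), and MYC had 1.26 to 1.45 CPM, against 21.9 to 23.7 CPM (-4.07 ± 0.11; adjusted p = 6.8e-34). Of 13 tested published KLF targets 9 rose and 2 fell with knockout in DMSO, where 29.3% of all genes were higher and 28.6% lower, with medians of 0.79 over the targets and 0 over all genes. Some of the 9 were near the floor or had overlapping libraries. THBD, for example, had 0.0298 to 0.278 CPM in knockout cells, against at most 0.0287 CPM in control cells. With trametinib in control cells 5 of the tested targets rose and 4 fell. CCND1, the D-type cyclin, had 27.5 to 29.6 CPM with trametinib, against 410 to 433 CPM in DMSO (-3.89 ± 0.036; adjusted p = 3.7e-53). Of 11 tested glucocorticoid and FOXO induced genes, the class KLF9 belongs to, 7 rose and 3 fell with trametinib in control cells, and 4 rose and 7 fell with knockout in DMSO. TXNIP had 430 to 454 CPM with trametinib, against 42.7 to 48.4 CPM in DMSO (3.27 ± 0.036; adjusted p = 2.7e-50), and FKBP5 had 12.8 to 13.5 CPM, against 31.7 to 33.4 CPM (-1.29 ± 0.061; adjusted p = 3.5e-24).

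Markers and RNA composition moved with some of these results. Summed CPM of the 6 melanocytic markers was 696 to 719 with guide 1 and 435 to 449 with guide 2 in trametinib, against 2170 to 2300 in control cells. In vemurafenib it was 717 to 738 with guide 1 and 431 to 456 with guide 2, against 2220 to 2250 in control cells, and in DMSO 515 to 526 with guide 1 and 326 to 343 with guide 2, against 935 to 1000 in control cells. The sum, like the group means of KLF3, KLF7 and KLF9, was lower in knockout cells in each treatment. It was also, as they were, higher with each drug than with DMSO in each population. SOX10 and DCT carried most of it: in trametinib SOX10 averaged 510 CPM with guide 1 and 281 CPM with guide 2, against 1050 CPM in control cells, and DCT 103 and 68 CPM, against 1050 CPM. In DMSO DCT averaged 0.181 CPM with guide 1 and 0.266 CPM with guide 2, against 0.938 CPM in control cells. The 5 fibroblast markers summed to 77 to 80.2 CPM with guide 2 and 54.7 to 58.7 CPM with guide 1 in trametinib, against 19.8 to 21 CPM in control cells, and COL1A2 stayed at or below 0.273 CPM in every library. The 6 keratinocyte markers summed to 49.9 to 53.7 CPM with guide 2 and 55 to 59.6 CPM with guide 1 in trametinib, against 47.6 to 50.8 CPM in control cells, mostly KRT10, while KRT1 was at 0 and DSG3 at or below 0.0149 CPM. Endothelial and leukocyte markers reached at most 23.4 and 3.2 CPM in sum. The mitochondrial share of counts was 3.13% to 3.52% with guide 1 and 3.29% to 3.58% with guide 2 in trametinib, against 2.05% to 2.38% in control cells. The part of these differences in the KLF values was not tested. Among overlapping genes, AC104794.4, antisense to KLF11, shares 416 exonic bases with it and had at most 0.0132 CPM.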

How the data were processed

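RNA sequencing libraries were made with a stranded polyA kit, per the labels' protocols. The authors deposited raw whole-number counts per gene and library. Per the submitters' processing notes, bcl2fastq, HISAT2 and HTSeq were used with hg38, without versions. The strand setting of the counting is not given in the sources used here. Each of the 58721 gene IDs was present in GENCODE 29, and 0 rows named no gene. The members and lists were chosen with earlier results of these data known.

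From the counts, genes were filtered with filterByExpr (minimum count 10) and fitted with edgeR 4.0.16 in R 4.3.3, using TMM factors (0.866 to 1.09), 9 group means, 18 residual degrees of freedom and the robust quasi-likelihood test. A gene was called at a Benjamini-Hochberg adjusted p under 0.05 over 25199 genes. The knockout value is the mean of both guides minus control. SE is the absolute log2 fold change over the square root of F. CPM are counts over scaled library size, with SD over 3 libraries. TMM centres each library on most genes, so a change in RNA content of the cells goes unseen.

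The text names every member, at most the 2 highest and 2 lowest called genes of each other list and comparison (KLF and SP genes also by level), and 2 genes most like each member. The lists were other KLF genes, SP genes, kinases and MEF2 factors, cofactors, ubiquitin ligases, TGF-beta early targets, immediate early genes, published KLF targets, and glucocorticoid and FOXO induced genes. Alternatives were DESeq2 1.42.0, its size factors, limma voom (limma 3.58.1), no filter, only the compared groups, a replicate block, 2-fold calls and leaving out each library. The scripts were tested on simulated data.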

Additional observations from a re-analysis of the deposited data

Results flagged for a closer look

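For 5 members the response to both drugs differed between knockout and control cells by a test of the difference itself (edgeR's quasi-likelihood test, interaction of knockout and drug). Of all tested genes 43.9% were called in this test for trametinib and 42.5% for vemurafenib. The share of all genes called for both drugs was not counted. For KLF4 the difference, knockout minus control, was 1.38 on the log2 scale with trametinib and 1.14 with vemurafenib. For KLF6 it was -0.97 with trametinib and -0.86 with vemurafenib. KLF7 gave -0.50 and -0.60, KLF9 gave -0.77 and -0.71, and KLF11 gave 0.83 and 0.85, in each case with trametinib first and vemurafenib second. KLF10 differed with vemurafenib by 0.13, a call lost under 3 other settings. The interactions with both drugs share the DMSO libraries.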

How the results depend on the processing

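Of 88 member values in the 11 comparisons, the direction of a call reversed in none under the settings tried. Requiring at least a 2-fold change lowered the count of members called in each comparison. It left 3 members for trametinib and 4 for vemurafenib in control cells, 3 and 1 in knockout cells, 2 for knockout in trametinib, 2 in vemurafenib and 1 in DMSO. For the differences in response it left 1 with trametinib and 1 with vemurafenib, and for vemurafenib against trametinib 0 in either population. Under other tools, normalizations, filters and groups the counts of members called stayed within 1.5 times, and the calls that changed belonged to KLF5 in trametinib (response in knockout cells, and its difference from control), KLF10 (difference in vemurafenib response) and KLF11 (vemurafenib against trametinib in control cells). Leaving out single libraries gave 5 to 8 members called per comparison.

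Replicate numbers showed no clear pairing of the libraries, in deviations from the group means. Same-numbered pairs from different groups correlated between -0.35 and 0.35 (median 0), and differently numbered pairs between -0.29 and 0.35 (median 0). Of 27 libraries 12 correlated best with their own number, so a weak pairing could go unseen. A replicate block left 87 of 88 member calls as they were, and the KLF5 response to trametinib in knockout cells passed the threshold (adjusted p = 0.044).

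The KLF10 difference lost its call without control DMSO replicates 1 or 3, control vemurafenib replicates 2 or 3, guide 1 DMSO replicate 2, any guide 1 vemurafenib replicate, any guide 2 DMSO replicate or guide 2 vemurafenib replicate 3. KLF2 and KLF4 have the lowest counts of the members in any library, 202 and 221, and the SEs of KLF2 reach 0.12 on the log2 scale, which limits what can be seen of its small changes.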
